A study of Mus musculus with 3 samples.

Results

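The genes described here encode the CD3 complex and the first signalling proteins of the T cell receptor (TCR). They are Cd3e, Cd3d and Cd3g (the CD3 chains), Cd247 (the ζ chain), Fcer1g (the γ chain of Fc receptors), the kinases Lck and Zap70 and the adaptors Lat and Lcp2. They were chosen by name, not by their values, and all 9 were found among the 32285 genes of the count matrix. Counts of unique molecular identifiers (UMIs) for these genes were read across thymocyte stages and other lymphoid cells, in cells with and without assembled TCR contigs. The cells came from 2 pools of cultured mouse fetal thymus that were run together in 1 lane of droplet-based 5′ single-cell RNA sequencing. All cells were wild type, and both pools were taken on culture day 13. Per the paper, both were cultured in the same medium, which held added FGF7 and, in the first days, thiazovivin. ORFTOCs were reaggregates of thymic epithelial cells expanded as organoids, fetal thymus cells depleted of EpCAM-positive cells and mouse embryonic fibroblasts. The epithelial cells came from older fetuses than the depleted thymus cells. FTOCs were intact fetal lobes of the same age as the depleted cells. Each pool mixed 2 cultures before labelling, so it counted as 1 sample, no test between pools was possible and every interval below (95%) covers counting error only.

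The αβ TCR cannot signal by itself. It is assembled with the CD3γ, CD3δ and CD3ε chains and a ζ dimer, whose cytoplasmic tails carry the ITAM motifs that Lck phosphorylates and Zap70 binds. Zap70 then phosphorylates the membrane adaptor Lat and, with it, the cytosolic adaptor Lcp2 (SLP-76). FcRγ is an ITAM dimer related to ζ that serves Fc receptors and activating receptors of natural killer and myeloid cells. In the thymus, pre-TCR signals drive the proliferation that leads to the CD4 CD8 double-positive (DP) stage, and TCR signals then select DP cells to become single-positive (SP) cells.

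Cd3g, Cd3d and Cd3e lie side by side on chromosome 9. In the RefSeq annotation of GRCm38.p6 the spans of Cd3g and Cd3d were 1337 bases apart and were transcribed in opposite directions, and 11682 bases separated Cd3d from Cd3e. Cd247 (165779952 to 165871153) and Fcer1g (171229572 to 171234349) lie on chromosome 1. The 198 bases just upstream of the starts of these 5 genes are shown because the CD3 genes, and the pair of ITAM dimers, are set beside each other in the results. Capitals mark matches on either strand to the letters of 5 motifs. The Runx motif was searched as TGTGGT and the motif of Ets factors as GGAAGT. The E-box, which basic helix-loop-helix factors bind, was searched as CAGNTG. The motif of GATA factors was searched as AGATAA, and that of the TCF and LEF factors downstream of Wnt as CTTTGA.
Cd3e (chr9:45009664-45009861, minus strand): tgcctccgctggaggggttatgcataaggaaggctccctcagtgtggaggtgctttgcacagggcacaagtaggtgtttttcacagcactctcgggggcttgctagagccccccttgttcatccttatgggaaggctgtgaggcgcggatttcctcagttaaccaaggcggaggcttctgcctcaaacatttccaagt
Cd3d (chr9:44981571-44981768, plus strand): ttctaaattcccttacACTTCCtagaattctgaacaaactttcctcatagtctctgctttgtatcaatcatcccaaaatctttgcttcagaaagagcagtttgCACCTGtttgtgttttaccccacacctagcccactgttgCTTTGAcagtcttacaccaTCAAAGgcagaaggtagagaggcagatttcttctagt
Cd3g (chr9:44980432-44980629, minus strand): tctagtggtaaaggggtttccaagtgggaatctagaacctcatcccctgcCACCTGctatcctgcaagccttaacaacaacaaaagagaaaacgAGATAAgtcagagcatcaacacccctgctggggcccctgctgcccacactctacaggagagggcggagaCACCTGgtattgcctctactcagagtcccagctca
Cd247 (chr1:165788483-165788680, plus strand): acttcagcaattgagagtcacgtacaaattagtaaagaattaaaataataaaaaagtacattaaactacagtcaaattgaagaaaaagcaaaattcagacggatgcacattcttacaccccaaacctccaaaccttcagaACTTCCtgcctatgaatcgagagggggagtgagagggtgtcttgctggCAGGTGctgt
Fcer1g (chr1:171234350-171234547, minus strand): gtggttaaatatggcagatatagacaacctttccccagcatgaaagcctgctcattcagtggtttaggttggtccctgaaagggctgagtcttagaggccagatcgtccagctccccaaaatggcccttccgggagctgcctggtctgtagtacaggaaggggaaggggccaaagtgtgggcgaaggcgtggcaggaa

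The Cd3d window held 4 matches (1 Ets, 1 E-box and 2 TCF/LEF), the Cd3g window held 3 (2 E-box and 1 GATA) and the Cd247 window held 2 (1 Ets and 1 E-box). The Cd3e and Fcer1g windows held none of these letters. Among 32817 promoter windows of the same length, 37.6% held an E-box, 16.5% an Ets, 11.1% a Runx, 10.8% a TCF/LEF and 7.65% a GATA match. The Cd247 window lies inside a longer annotated gene model.

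After filtering, 8392 cells remained, 4248 from ORFTOCs (median 8053 UMIs per cell) and 4144 from FTOCs (median 4952). The 5933 immune cells formed 18 clusters, which were named from marker lists with the 9 genes and 55 other TCR signalling genes kept out of the clustering. Of these, 1009 were cycling thymocyte-like, 1982 DP-like and 425 mature SP-like. A selected-like class of 199 cells, led by Itm2a and Cd5, was formed at the finer resolution of 2. DP-like cells were shallow (median 1637.5 UMIs) beside cycling (10708), selected-like (2178) and mature SP-like (5899) cells. Levels are therefore given as CPM (UMIs of the gene scaled to the summed UMIs of a class), and UMIs per cell are given where they point the other way. A productive TRB contig was found in 87.8% of cycling, 86.2% of DP-like, 93.5% of selected-like and 92.2% of mature SP-like cells, and in 4.02% of epithelial cells, which should lack one. Xist was lower in ORFTOC than in FTOC cells in each stage (412 against 764 CPM in DP-like cells), and whether the pools differed in sex was not tested.

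Between the cycling and the DP-like stage, the ζ chain and the adaptor Lcp2 rose most, followed by Lck, Cd3e and Lat. In CPM, 5 of the 8 genes with at least 50 CPM in the higher class were more than 2-fold higher in DP-like cells (Cd247, Lcp2, Lck, Cd3e and Lat) and none was 2-fold lower, while 27.2% of all 4221 genes tested were 2-fold higher and 12.7% lower. The median log2 ratio of the 9 genes was 1.203 and that of all genes tested was 0.42. From DP-like to mature SP-like cells, Cd247, Lck, Lat and Lcp2 fell more than 2-fold, and Cd3d and Cd3g moved little. This made 4 of 8 lower and none higher, against 31.1% of 3921 genes lower and 6.17% higher, with medians of -1.31 for the 9 genes and -0.64 for all genes. The comparisons share the DP-like cells.

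These changes are changes in the share of a cell's RNA. Per cell, DP-like cells held fewer UMIs of all 9 genes than cycling cells. Of the 8 genes, 7 (all but Cd247) were then more than 2-fold lower, against 3832 of 4221 genes lower and 17 higher. Median-of-ratios scaling moved the median of all genes by -0.68 between cycling and DP-like and by 0.64 between DP-like and mature SP-like cells. With it, 1 of 8 genes (Cd247) stayed 2-fold higher in DP-like cells and none was lower. Of all 4221 genes, 415 were then higher and 1132 lower. In mature SP-like cells 2 of 8 (Cd247 and Lck) stayed 2-fold lower and none was higher, against 467 of 3921 genes lower and 533 higher. Under that scaling the genes higher by 2-fold made up 26.8% of all genes called between cycling and DP-like cells in place of 68.3%, and 53.3% in place of 16.6% between DP-like and mature SP-like cells.

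**Figure D1:**
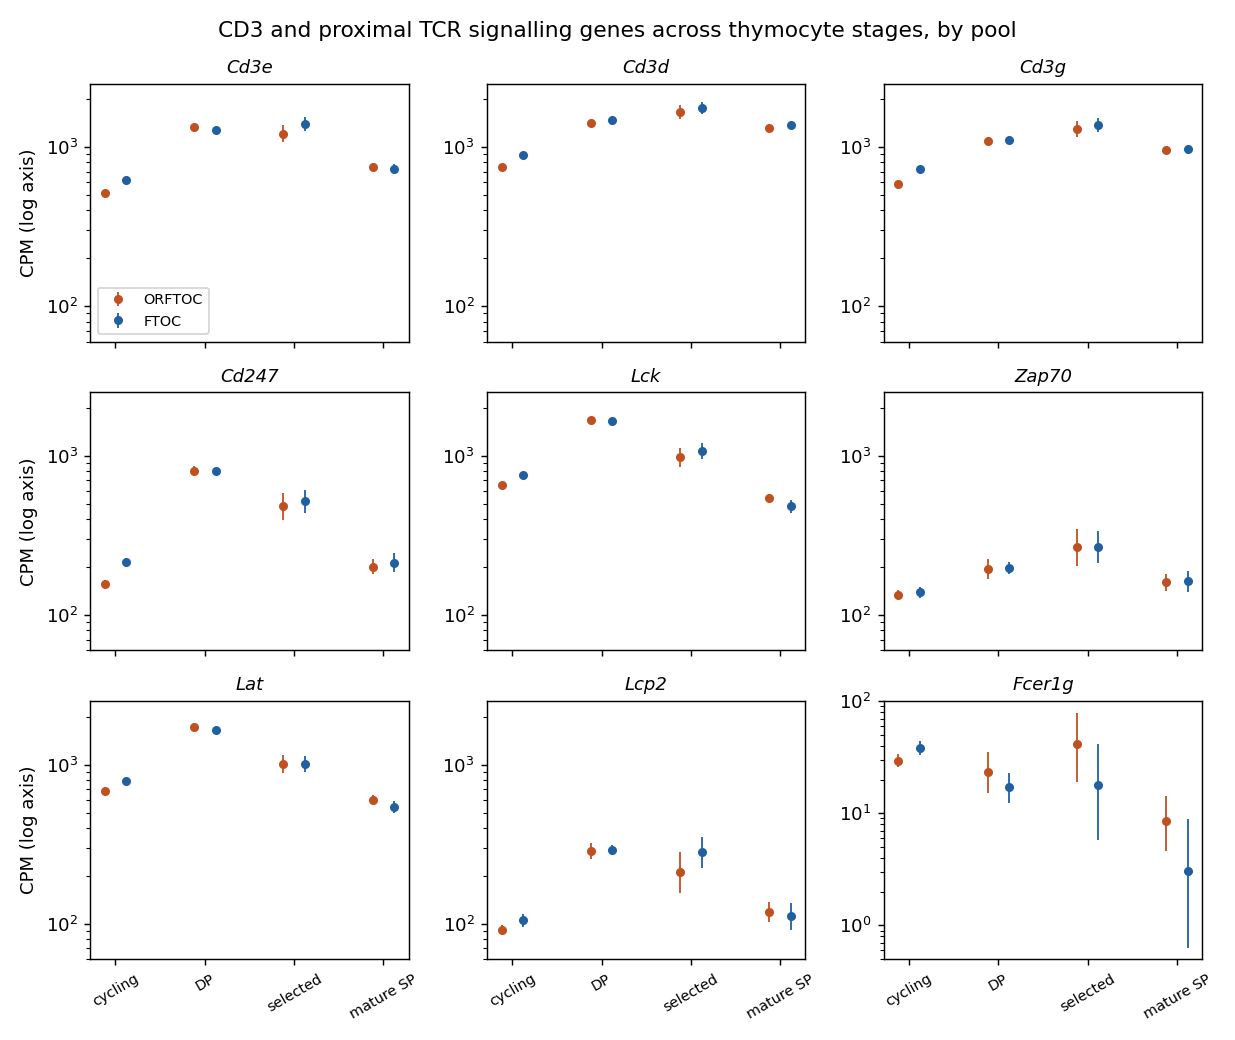
Level of each gene (CPM, log axis; Fcer1g on its own range) in 4 thymocyte stages, in ORFTOC and FTOC cells; points are CPM of the summed UMIs and bars are exact 95% Poisson intervals. Cd247, Lck, Lat and Lcp2 were highest in DP-like cells, while Cd3d, Cd3g and Zap70 were highest in selected-like cells, and in DP-like cells the pools lay within 0.06 of each other on the log2 scale for all genes but Fcer1g.

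Of the CD3 chains, Cd3e was 2-fold higher in DP-like than in cycling cells and Cd3d and Cd3g were higher by less. Cd3e, which encodes the ε chain shared by both CD3 dimers, measured 556 CPM in cycling, 1291 in DP-like, 1313 in selected-like and 743 in mature SP-like cells. Its log2 ratio was 1.21 (interval 1.16 to 1.27) for DP-like over cycling and -0.80 (-0.87 to -0.72) for mature SP-like over DP-like cells. Only the first was past 2-fold. Cd3d, which encodes the δ chain, measured 796, 1464, 1713 and 1341 CPM in the same order. Its log2 ratios were 0.88 (0.83 to 0.93) and -0.13 (-0.19 to -0.06), so its mature SP-like level stayed close to that of DP-like cells. Cd3g, which encodes the γ chain, measured 638, 1104, 1339 and 958 CPM, with log2 ratios of 0.79 (0.74 to 0.85) and -0.20 (-0.28 to -0.13). The intervals of Cd3e and of the other 2 chains did not overlap in the step to mature SP-like cells: Cd3e fell further. With median-of-ratios scaling Cd3d (0.52) and Cd3g (0.44) were above DP-like cells in this step, and Cd3e (-0.16) was not.

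Cd247 had the widest swing of the genes past 50 CPM. It measured 178 CPM (171 to 186) in cycling, 803 (774 to 833) in DP-like, 503 (443 to 570) in selected-like and 205 (188 to 223) in mature SP-like cells. The log2 ratio was 2.17 (2.09 to 2.25) into the DP-like stage, -0.66 (-0.85 to -0.47) from there to selected-like cells and -1.29 (-1.51 to -1.06) from selected-like to mature SP-like cells. In CPM the level thus peaked in DP-like cells, and that of mature SP-like cells lay just above the cycling level. Per cell the step into the DP-like stage went the other way (log2 -0.55) and Cd247 was highest in cycling cells. It measured 2.13 UMIs per cell in cycling, 1.46 in DP-like, 1.26 in selected-like and 1.27 in mature SP-like cells.

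Lck, the Src family kinase bound to CD4 and CD8, followed Cd247. It measured 692, 1661, 1033 and 519 CPM, with log2 ratios of 1.26 (1.21 to 1.31) into the DP-like stage, -0.68 (-0.81 to -0.55) into selected-like cells and -1.68 (-1.76 to -1.59) for mature SP-like over DP-like cells. Zap70, the kinase that docks on phosphorylated ITAMs, changed by less than 2-fold in CPM at each step. It measured 136 CPM in cycling, 197 in DP-like, 268 in selected-like and 161 in mature SP-like cells, and its log2 ratio was 0.53 (0.41 to 0.66) for DP-like over cycling, 0.42 (0.15 to 0.69) for selected-like over DP-like and -0.71 (-1.003 to -0.42) for mature SP-like over selected-like cells. None of these was past 2-fold. The first turned to -0.14 with median-of-ratios scaling.

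The 2 adaptors moved with Lck. Lat, the membrane scaffold, measured 725, 1668, 1013 and 580 CPM in cycling, DP-like, selected-like and mature SP-like cells. Lcp2 measured 96.8, 290, 252 and 117 CPM. Their log2 ratios were 1.203 (1.16 to 1.25) and 1.58 (1.46 to 1.70) into the DP-like stage and -1.53 (-1.61 to -1.44) and -1.31 (-1.501 to -1.13) from DP-like to mature SP-like cells. They differed at the step to selected-like cells, where Lat measured -0.73 (-0.86 to -0.59) and Lcp2 -0.19 (-0.46 to 0.08). Lat had thus already fallen in selected-like cells, while the interval of Lcp2 held 0.

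Fcer1g was low in all 4 stages. It measured 32.8 CPM in cycling, 18.9 in DP-like, 28.2 in selected-like and 6.46 in mature SP-like cells, against 10.6 in epithelial cells and 191 in the ambient profile of empty droplets. Of the DP-like cells 57 held a UMI of it, and of the mature SP-like cells 12 did. In the cycling class 367 of its 395 UMIs lay in cluster 8, described below.

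The step from DP-like to selected-like cells moved none of the 9 genes past 2-fold, while 3.91% of 4044 genes tested were 2-fold higher and 6.85% 2-fold lower. The median of the 9 genes was 0.03 and that of all genes was -0.07. Within 2-fold the intervals still lay on different sides of 0. Those of Cd3g (0.28, interval 0.16 to 0.40), Cd3d (0.21, 0.11 to 0.32) and Zap70 lay above 0, those of Cd247, Lck and Lat below, and those of Cd3e and Lcp2 held 0. The unnamed cluster 7 (412 cells, led by Cd5, Ccr9, Cd28 and Itm2a; 57.3% with both TRB and TRA) had ratios with these signs over DP-like cells at resolution 1, with Cd3d at 0.20, Cd3g at 0.15, Zap70 at 0.32, Cd247 at -0.48, Lck at -0.40 and Lat at -0.35. It held 198 of the 199 selected-like cells, so it is not an independent comparison. From selected-like to mature SP-like cells 2 of 8 genes fell more than 2-fold, Cd247 and Lcp2, against 20.7% of 3628 genes, and none rose so far, against 3.75%. Lck, at -0.99 (-1.14 to -0.83), lay just inside.

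**Figure D2:**
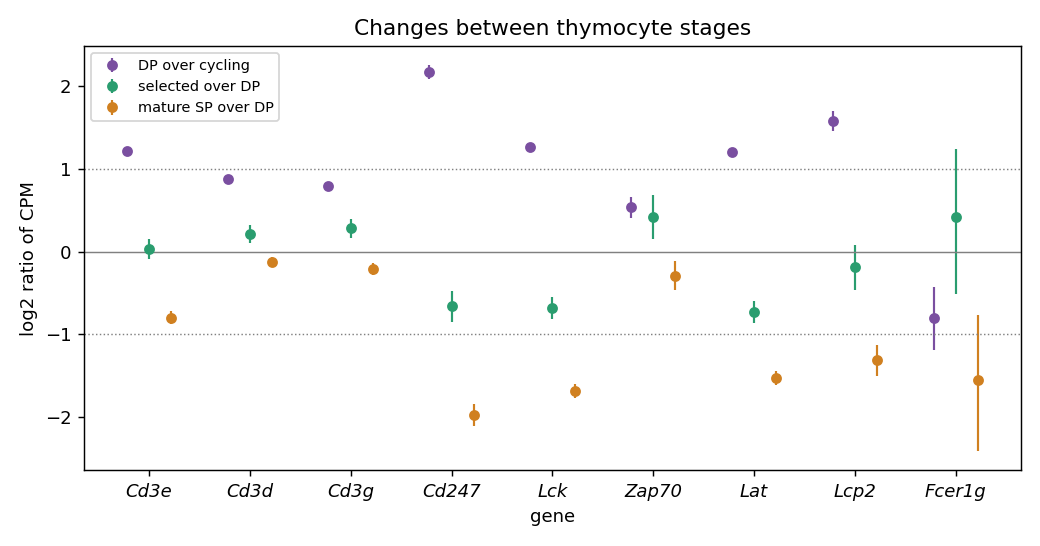
Log2 ratio of CPM between thymocyte stages for each gene; bars are exact conditional 95% intervals and dotted lines mark 2-fold. DP-like over cycling cells gave 5 genes above the upper line, selected-like over DP-like cells gave none outside the lines, and mature SP-like over DP-like cells gave Cd247, Lck, Lat and Lcp2 below the lower line, with Fcer1g there on 17 UMIs.

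The other genes of the pathway were read from a fixed list. Of its 55 genes, 42 could be tested between cycling and DP-like cells, of which 26 were more than 2-fold higher in DP-like cells and none was 2-fold lower, beside 27.2% and 12.7% of all genes. These included 11 of 15 adaptors, 6 of 7 effectors, 3 of 5 kinases and 4 of 10 negative regulators. The largest ratios were those of the kinase Tec (2.67), Themis, an adaptor needed for positive selection (2.34), and Tespa1 (2.23). The smallest were those of the phosphatases Ptpn2 (-0.67) and Ptpn6 (-0.62) and of Hcst, the DAP10 adaptor (-0.41). Into the selected-like stage 3 of 44 were 2-fold higher and 3 lower, beside 3.91% and 6.85% of all genes. The higher genes were the negative regulators Cd5 (1194 against 222 CPM, log2 2.43), Ptpn6 (1.29) and Cd6 (1.13). The lower genes were Ptcra, the pre-TCR α chain (-4.80), Tec (-1.54) and Themis (-1.37). In mature SP-like over DP-like cells 19 of 43 were lower, beside 31.1% of all genes, and 1, Hcst (264 against 80.5 CPM), was higher, beside 6.17%. Ptcra (-6.71, on 3 UMIs in mature SP-like cells), Nck2 (-3.58) and Sla (-3.10) had the smallest ratios there, and Cblb (0.92) and Ptpn6 (0.41) followed Hcst at the top. In mature SP-like over selected-like cells 18 of 42 were lower, beside 20.7% of all genes, and Hcst was again the only listed gene higher (1.42), beside 3.75%, with Nck2 (-2.66), Sla (-2.65) and Cd5 (-2.61) the lowest and Ptpn22 (0.75) and Ubash3a (0.06) next at the top.

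Of the genes of the TCR chains, 2 of 4 listed (Trbc1 and Trbc2) were 2-fold higher in DP-like than in cycling cells, beside 27.2% of all genes. None was 2-fold lower, beside 12.7%. From DP-like to mature SP-like cells 3 of 4 (Trbc1, Trbc2 and Ptcra) were 2-fold lower, beside 31.1%, and none higher, beside 6.17%. Trbc2, a β constant region, measured 294 CPM in cycling and 747 in DP-like cells (log2 1.34) and fell to 192 in mature SP-like cells (-1.96). Trbc1 had log2 ratios of 1.18 and -1.44 at the same steps. Trac, the α constant region, was highest in selected-like cells (296 CPM, against 96.7 in cycling, 181 in DP-like and 136 in mature SP-like cells), so its peak lay with those of Cd3d, Cd3g and Zap70 rather than with that of Cd247. Ptcra fell from 119 CPM in DP-like cells to 1.14 in mature SP-like cells and measured 2 UMIs in selected-like cells.

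The pools were compared within a stage because they held the stages in different shares. In DP-like cells the ORFTOC and FTOC levels of 8 genes were within 0.06 of each other on the log2 scale. Cd3e measured 1329 CPM (1259 to 1401) in ORFTOC and 1275 (1232 to 1320) in FTOC cells, Cd247 802.5 and 803, and Lck 1672 and 1657, and every interval of these ratios held 0. Fcer1g (24 and 44 UMIs) had a log2 ratio of 0.47 with an interval of -0.32 to 1.22. In mature SP-like cells the ratios of the 8 genes ran from -0.08 (Cd247) to 0.17 (Lck, 541 against 481 CPM, interval 0.01 to 0.34), and in selected-like cells from -0.41 (Lcp2, interval -0.97 to 0.13) to near 0 (Zap70, 268 CPM in both pools). Of the genes past 50 CPM none differed 2-fold between pools in any of the 4 stages, where 0.0961% (cycling), 0.0256% (DP-like), 4.6% (selected-like) and 0.26% (mature SP-like) of all genes were 2-fold higher in ORFTOC cells and 0.0961%, 0.0767%, 4.45% and 0.52% were lower. Fcer1g was 2-fold higher in ORFTOC cells in the selected-like (9 and 5 UMIs) and mature SP-like (14 and 3 UMIs) classes on these few counts.

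In cycling cells alone most ratios lay on the same side. All 9 genes were lower in ORFTOC cells, from -0.05 for Zap70 (interval -0.19 to 0.10) to -0.45 for Cd247 (-0.57 to -0.32). Cd3e measured 516 CPM in ORFTOC and 624 in FTOC cells, Cd3g 586 and 727, and Cd247 157 and 214. ORFTOC cycling cells were deeper (median 12588 against 8453 UMIs), and per cell all 9 genes were higher in ORFTOC cells, by little for Cd247 (2.14 and 2.13 UMIs). The difference did not lie in all 3 clusters of the class. Cd3e measured 496 and 681 CPM in cluster 4 and 572 and 732 in cluster 11, but 509 and 514 in cluster 8, and Lat showed the same order (846 and 992, 920 and 1119, 422 and 421). Within each pool the step from cycling to DP-like cells again put 5 of 8 genes 2-fold higher, against 29.3% of all genes in ORFTOC and 24.1% in FTOC cells, and none lower, against 13.9% and 12.1%. The step to mature SP-like cells again put 4 of 8 lower, against 32.0% and 31.7%, and none higher, against 6.57% and 6.7%.

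The clusters of the cycling class were not alike. Cluster 8 (341 cells, 61.3% from ORFTOCs) had both TRB and TRA contigs in 68.9% of cells, against 14.5% in cluster 4 and 11.1% in cluster 11. Beside clusters 4 and 11 it had lower Lat (422 CPM, log2 -1.14, interval -1.22 to -1.07), Cd247 (118 CPM, -0.89) and Lck (478 CPM, -0.81) and higher Zap70 (177 CPM, 0.71), Cd3d (907 CPM, 0.33) and Fcer1g (75.1 CPM, 4.27, against 4.13 CPM in cluster 4 and 3.44 in cluster 11). This made 1 of 9 genes 2-fold higher and 1 lower, against 5.99% and 7.8% of 3320 genes. Set beside mature SP-like cells, cluster 8 differed by less than 2-fold in 8 genes, with Lat at -0.46 and Cd3e at -0.54, and Fcer1g alone was past 2-fold (3.54), against 13.8% of genes higher and 4.21% lower. Without cluster 8, the step to DP-like cells put 4 of 8 genes 2-fold higher (Cd247 1.87, Lcp2 1.70, Cd3e 1.14 and Cd3d 1.02), against 24.5% of all genes, and Lck (0.99) and Lat (0.84) dropped below 2-fold. The ratio of Fcer1g turned from -0.80 (interval -1.19 to -0.42) with cluster 8 to 2.27 (1.62 to 2.96) without it, at 18.9 CPM in DP-like against 3.90 CPM in the other cycling cells, while 10.6 CPM was measured in epithelial cells.

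Outside the thymocyte stages some of the 9 genes had like levels across lymphoid classes and others did not. Mature SP-like cells were set beside the 801 cells without any TCR contig in the innate lymphoid classes, named ILC2-like and ILC3-like from markers of these cells (such as Il13 and Areg, and Il22 and Il23r). In mature SP-like cells 6 of 9 genes were 2-fold higher and 1 was lower, against 6.34% and 18.9% of 3440 genes. The 6 were Cd3d (log2 5.90, interval 5.60 to 6.22), Cd247 (5.72), Cd3e (3.95), Lck (1.85), Cd3g (1.75) and Lat (1.41), and the lower gene was Fcer1g (-7.59, interval -8.37 to -6.91). Zap70 (-0.09, interval -0.27 to 0.09) and Lcp2 (-0.04, -0.25 to 0.17) were at like levels. Both had intervals that held 0 and left out differences past 2-fold.

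**Figure D3:**
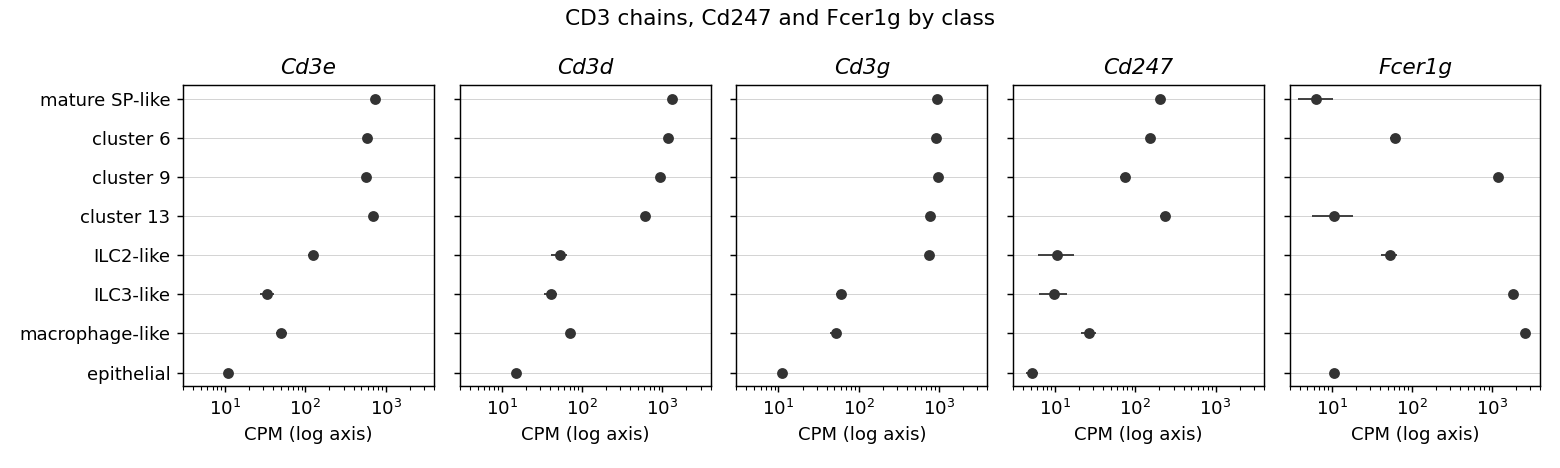
Levels (CPM, log axis) of the CD3 chains, Cd247 and Fcer1g in mature SP-like cells, unnamed lymphoid clusters 6, 9 and 13, the innate lymphoid and macrophage-like classes and epithelial cells; bars are exact 95% Poisson intervals, most of them hidden by the points. Cd3g in ILC2-like cells (753 CPM) lay beside mature SP-like cells and clusters 6, 9 and 13, while Cd3d and Cd247 in ILC2-like cells lay near ILC3-like cells.

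ILC2-like cells held Cd3g with little of the other CD3 chains. Cd3g measured 753 CPM (761 in ORFTOC and 686 in FTOC cells), near the 958 CPM of mature SP-like cells (log2 -0.35, interval -0.45 to -0.24), while Cd3e measured 125 CPM (-2.58), Cd3d 52.7 (-4.67) and Cd247 10.7 (-4.27). In all, 4 of 9 genes were 2-fold lower than in mature SP-like cells (those 3 and Lck, at -2.004) and 1, Fcer1g, was higher, against 6.98% and 14.5% of 3154 genes. Cd3g was found in 232 of the 254 cells and in 173 it was the only CD3 chain. After each cell was thinned to 1000 UMIs, 47.8% of ILC2-like cells kept a Cd3g UMI, against 1.00% of epithelial cells, and 9.09% and 3.16% kept one of Cd3e and Cd3d.

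The proportions of the CD3 chains were set beside those of other classes and of the ambient profile. Cd3g made up 81.0% of the CD3 chain UMIs in ILC2-like cells (78.8 to 83.0; 81.3% in ORFTOC and 77.6% in FTOC cells), 34.7% in the ambient profile, 28.6% in DP-like, 31.5% in mature SP-like and 44.9% in ILC3-like cells. Among the 243 ILC2-like cells without a TCR contig the levels were 741 CPM for Cd3g, 101.7 for Cd3e, 22.8 for Cd3d and 7.11 for Cd247. Cd3g was spread over the class, with 7.26% of its UMIs in the 5 cells that held most. The class came mostly from ORFTOCs (235 of 254 cells), so the FTOC values rest on 19 cells. Its own markers were present (6 of 7 in over 5% of cells, 2961 CPM in sum), and those of DP thymocytes were low (95.99 CPM in sum, against 9604 in DP-like cells). Markers of selected thymocytes (such as Itm2a, Cd69 and Tox) summed to 2620 CPM, against 2059 CPM in selected-like cells, with 5 of 6 in over 5% of cells. Gamma-delta T cell markers summed to 1129 CPM, and Trdc alone to 25.3 CPM, against 246 in cluster 6. The part of such cells in the Cd3g level was not tested.

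The signalling genes were kept in ILC2-like cells to different degrees. Zap70 measured 171 CPM and Lcp2 151 CPM, against 161 and 117 in mature SP-like cells, Lat 298 CPM (log2 -0.96) and Lck 129 CPM. Fcer1g reached 52.7 CPM, but 62 of its 79 UMIs lay in 5 cells, all 79 came from ORFTOCs, and the 19 FTOC cells held 0, which allows up to 24.3 CPM. A class level of Fcer1g cannot be read from so few cells. In ILC3-like cells Fcer1g was the high gene of the set. It measured 1821 CPM (1900 in ORFTOC and 1575 in FTOC cells) and was found in 98.1% of 573 cells, while Cd3e (33.4), Cd3d (41.2), Cd3g (60.8) and Cd247 (9.60 CPM) were all below the ambient profile, in which they measured 142, 129, 144 and 49.6 CPM. Zap70, Lcp2, Lat and Lck measured 173, 108, 198 and 176 CPM in ILC3-like cells and 44.75, 87.97, 160.5 and 172.1 CPM in the ambient profile, so Lck was near it and Zap70 was furthest above. The ambient CPM describes empty droplets and is not the level that ambient RNA gives in a cell. In epithelial cells these 4 genes measured 3.19, 3.39, 12.7 and 15.5 CPM and the CD3 chains between 10.98 and 15.2 CPM. After thinning to 1000 UMIs, 14.5% of ILC3-like cells kept an Lck UMI, against 1.46% of epithelial cells. Against mature SP-like cells 6 of 9 genes were 2-fold lower and Fcer1g was higher (8.14), against 7.1% and 21.6% of 3577 genes.

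Of the 9 classes compared between pools, CD3 chains differed by 2-fold in ILC3-like cells only. Cd3e measured 23.0 CPM in ORFTOC and 65.9 in FTOC cells, Cd3d 28.6 and 80.5, and Cd3g 48.4 and 99.5, so 3 of 8 genes were lower in ORFTOC cells, against 0.9% of 3554 genes, and none higher, against 0.45%. These counts lay in few cells. For each gene, the 5 of 573 cells that held most had 34 of 94 UMIs of Cd3e, 57 of 116 of Cd3d and 43 of 171 of Cd3g. In ILC2-like cells and clusters 6, 9 and 13 none of the 9 genes that reached 50 CPM in a pool was 2-fold lower in ORFTOC cells, against 4.13%, 0.213%, 0.706% and 3.34% of genes, and of such genes Fcer1g in ILC2-like cells was higher, against 8.01%, 0.178%, 0.336% and 2.11%. Below that level, Cd247 in ILC2-like cells measured 8.16 CPM (11 UMIs) in ORFTOC and 33.0 CPM (5 UMIs) in FTOC cells, and Fcer1g in cluster 13 had 8 and 5 UMIs. The 6 values of the CD3 chains in ILC3-like cells lie below the ambient levels given above, and above the epithelial levels of these chains. A TRB contig was found in 1.996% of ORFTOC and 4.92% of FTOC ILC3-like cells, and the 10 cells with TRB alone measured 278 CPM of Cd3e and 374 of Cd3d, against 20.1 and 22.3 CPM in the 558 cells without contigs.

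Clusters 6, 9 and 13 expressed CD3 chains but had a TRB contig in fewer cells than the thymocyte stages. Cluster 6 (425 cells, led by Ly6c2, Cxcr3 and Klrd1) had TRB in 44.0% of cells, cluster 9 (319 cells, led by Xcl1, Gzmc and Gzmb) in 26.0% and cluster 13 (180 cells, led by Il17a, Blk and Ccr2) in 18.9%. Trdc, the δ constant region, measured 246, 151 and 314 CPM there, against 12.6 CPM in mature SP-like cells. None of the 3 met the naming rule. Cluster 6 was closest to mature SP-like cells. There 8 of the 9 genes lay between -0.45 (Lat) and 0.20 (Zap70) on the log2 scale, and only Fcer1g was 2-fold higher (61.6 CPM, 3.25), against 4.11% of 2847 genes, and none was lower, against 2.21%.

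Cluster 9 had both CD3 chains and Fcer1g at high levels. Cd3g measured 989 CPM, Cd3d 941 and Cd3e 573, beside 1188 CPM of Fcer1g, and 271 of 319 cells (85.0%, at a median of 10835 UMIs) held UMIs of Fcer1g and of a CD3 chain. The same share was 0.776% in epithelial cells (median 12745 UMIs), 32.6% in macrophage-like cells (18679) and 15.8% in cluster 6 (8158). Cd247 was low (73.5 CPM, log2 -1.48 against mature SP-like cells, interval -1.70 to -1.27), and so was Lat (190 CPM, -1.61), while Lck (440), Zap70 (186) and Lcp2 (119 CPM) were near their mature SP-like levels. This made 2 of 9 genes 2-fold lower and 1 higher, against 6.19% and 11.2% of 3088 genes. Tyrobp, which encodes the ITAM adaptor DAP12, also had its highest level of these clusters there (743.5 CPM, against 8.23 in cluster 6 and 8.74 in mature SP-like cells). Both pools had the combination, with Fcer1g at 1262 CPM in ORFTOC and 1122 in FTOC cells. Markers of macrophages summed to 16.0 CPM in the cluster. Cycling thymocyte markers summed to 801 CPM there, against 57.8 CPM in mature SP-like and 2691 CPM in cycling thymocyte-like cells. In cycling cluster 8 Cd247 measured 125 CPM in cells with a TRB contig and 90.7 without, and Lat 437.5 and 357.5 CPM. The part of cycling in the low Cd247 and Lat of cluster 9 was not tested.

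Cluster 13 held the ζ form. Cd247 measured 232 CPM and Fcer1g 10.8 CPM (13 UMIs), while Cd3d (615 CPM, log2 -1.13 against mature SP-like cells, interval -1.24 to -1.01) and Lck (246 CPM, -1.07) were 2-fold lower and Zap70 (255 CPM, 0.66) was higher. These made 2 of 8 genes lower, against 4.43% of 3202 genes, and none higher, against 11.7%. Cd3e (690 CPM), Cd3g (764 CPM) and Lat (657 CPM) differed by less than 2-fold.

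The pathway list was set beside mature SP-like cells too. In cluster 6, 1 of 41 listed genes tested was 2-fold higher and 4 lower (4.11% and 2.21% of all genes), in cluster 9 these were 4 and 11 of 44 (11.2% and 6.19%), and in cluster 13 they were 3 and 10 of 41 (11.7% and 4.43%). In ILC2-like cells 2 of 42 were higher and 13 lower (14.5% and 6.98%), and in ILC3-like cells 6 of 45 and 15 (21.6% and 7.1%). Cd5 and Cd6, inhibitory receptors of T cells, were among the 3 lowest listed genes against mature SP-like cells in clusters 6, 9 and 13 and in ILC2-like cells (Cd5 at 51.2, 20.3, 45.6 and 10.7 CPM, against 199.6 CPM), and Cd6 was also among the 3 lowest in ILC3-like cells (4.98 against 95.4 CPM). Sla, an adaptor that limits TCR levels, was among the 3 highest in cluster 13 (177 CPM), ILC2-like (94.0) and ILC3-like cells (332 CPM), against 43.7 CPM in mature SP-like cells. Plcg2 (207 against 3.42 CPM) and Tyrobp (149 against 8.74 CPM) were the highest in ILC3-like cells, and Ubash3b (120 against 12.6 CPM) in ILC2-like cells. Lat2, a relative of Lat, measured 68.1 CPM in cluster 9 and 0 UMIs in mature SP-like cells. Of the listed genes tested, 14 of 46 were 2-fold higher and 5 lower in mature SP-like cells than in the innate lymphoid cells without contigs, beside 6.34% and 18.9% of all genes.

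**Figure D4:**
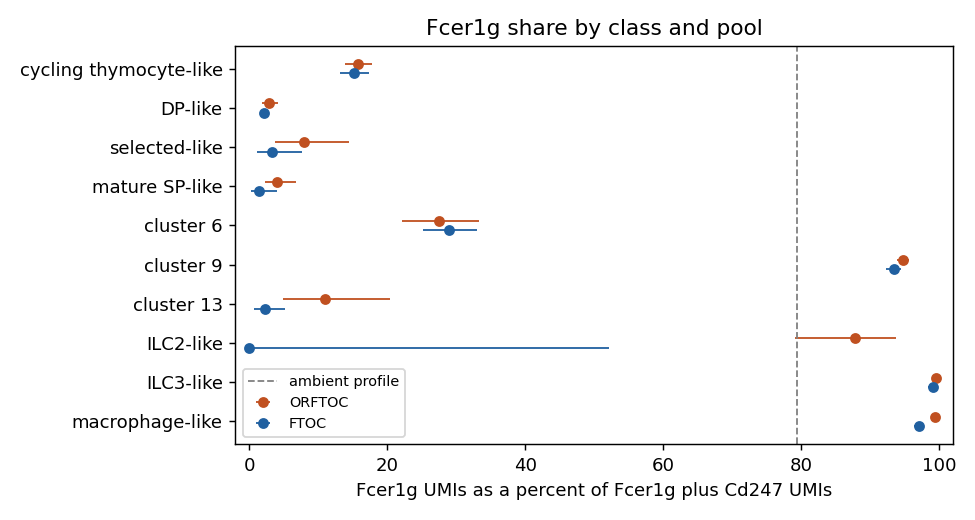
Fcer1g UMIs as a percent of the summed Fcer1g and Cd247 UMIs of a class, in ORFTOC and FTOC cells; bars are exact 95% binomial intervals and the dashed line is the ambient profile (79.4%). As whole classes the thymocyte stages and cluster 13 reached at most 15.8%, cluster 6 lay between 27.5 and 29.0%, and cluster 9, ILC3-like and macrophage-like cells lay between 93.5 and 99.6%, with ILC2-like cells resting on few UMIs. The cycling class mixed clusters with unlike shares.

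Since Fcer1g and Cd247 encode alternative ITAM dimers, the share of Fcer1g in their summed UMIs was compared across classes. It was 2.30% (interval 1.79 to 2.90) in DP-like, 3.05% in mature SP-like, 5.30% in selected-like and 15.5% in cycling cells. The cycling value mixed unlike clusters. In cluster 8, cells with a TRB contig held 218 Fcer1g and 490 Cd247 UMIs, and cells without held 149 and 88. In cluster 4 these were 18 and 917, and 2 and 66. In cluster 11 they were 7 and 510, and 1 and 80. For the other classes the Fcer1g share was as follows. It was 4.44% in cluster 13, 28.5% (25.4 to 31.7) in cluster 6, 94.2% (93.5 to 94.8) in cluster 9, 99.5% in ILC3-like and 98.97% in macrophage-like cells. The intervals of clusters 13, 6 and 9 did not overlap, so these 3 clusters, all with CD3 chains, lay low, in between and high. Subtraction of the ambient profile left the shares of clusters 6, 9 and 13 within these intervals. In ILC2-like cells the share was 83.2%, close to the ambient 79.4%, and it moved to 71.7% without cells that also held epithelial, mesenchymal or macrophage marker UMIs.

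The presence of a TRB contig in the same cell went with less Fcer1g, while the other 8 genes differed by less than 2-fold. In clusters 6, 9 and 13 together, 304 cells had a TRB contig and 620 had none. Fcer1g measured 314 CPM with and 643 CPM without one (log2 -1.03, interval -1.14 to -0.93), and it was the 1 gene of 9 past 2-fold, against 0.722% of 2908 genes lower and 0.653% higher. The other 8 lay between -0.22 (Cd3g, interval -0.28 to -0.15) and 0.19 (Cd3d, 0.13 to 0.26). The sum mixes clusters with different contig shares, so the values within clusters are given too. Fcer1g measured 37.7 and 82.4 CPM in cluster 6 (-1.13, interval -1.56 to -0.71) and 824 and 1350 CPM in cluster 9 (-0.71, interval -0.82 to -0.61), and cluster 13 held too few UMIs (13) to compare. In cluster 6 Fcer1g was found in 67 of 425 cells, and 5 cells held 53 of its 232 UMIs. The intervals do not cover such spread between cells. Fcer1g was lower with a contig in clusters 6 and 9, and past 2-fold in cluster 6, against 0.675% of 2814 genes lower and 0.675% higher. In cluster 9 none was past 2-fold (0.605% lower and 0.841% higher of 2974 genes), and none in cluster 13 (2.09% and 4.01% of 3495). The call in the sum rests on the clusters taken: without cells holding markers of other lineages the ratio was -0.99, and with log-normalised clustering it was -0.85.

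Trdc moved with these contigs. In cluster 6 it measured 359 CPM in cells without a contig, 283 in cells with TRB alone and 23.6 in cells with TRB and TRA, and Fcer1g measured 76.8, 55.4 and 27.2 CPM in the same order. In cluster 9 Trdc measured 156, 185 and 57.6 CPM and Fcer1g 1353, 917 and 651 CPM. Cells with TRB alone thus kept Trdc near the level of cells without contigs, and Fcer1g lay in between. The part of Trdc-expressing cells in the Fcer1g difference was not tested. The CD3 chains changed less over these groups, with Cd3g at 969, 946 and 774 CPM and Cd3e at 612, 574 and 560 CPM in cluster 6.

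**Figure D5:**
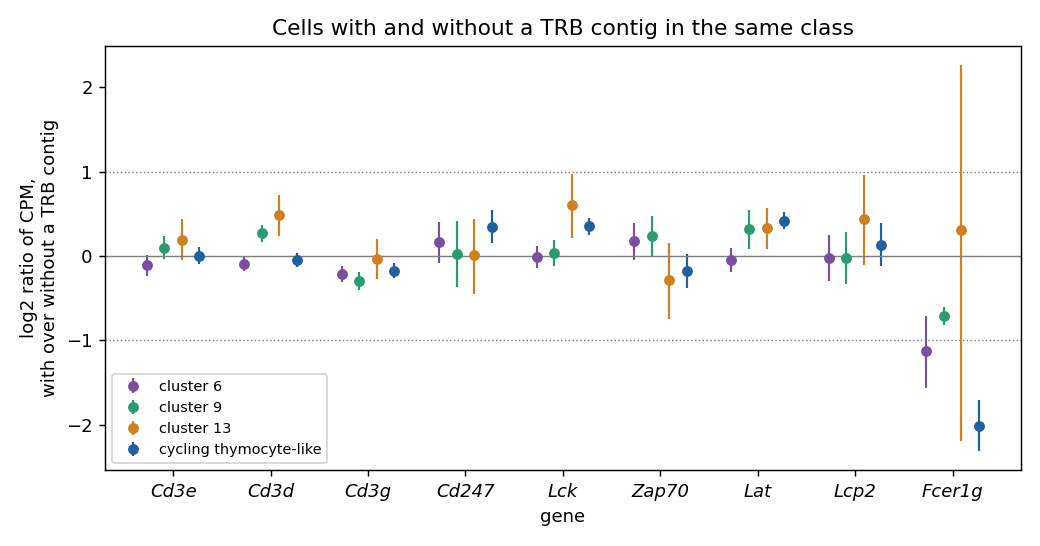
Log2 ratio of CPM in cells with over cells without a TRB contig, in clusters 6, 9 and 13 and in cycling thymocyte-like cells; bars are exact conditional 95% intervals and dotted lines mark 2-fold. Fcer1g was lower with a contig in cluster 6, cluster 9 and cycling cells, while the ratios of the other 8 genes lay within 2-fold.

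Cells with and without a contig were also compared in the cycling, DP-like and mature SP-like stages. Selected-like cells were not compared, since 12 of them had no contig. Among cycling cells, with a TRB contig (886 cells) Fcer1g measured 23.3 CPM and without (123 cells) 93.9 CPM (log2 -2.01, interval -2.31 to -1.71), which was 1 gene of 9 lower by 2-fold against 1.19% of 3106 genes lower and 0.612% higher. Lat (0.42), Lck (0.35) and Cd247 (0.35) were somewhat higher with a contig and Cd3g (-0.17) lower. The groups were spread unevenly over the clusters: cluster 8, which held most Fcer1g UMIs, had 66 of the cells without TRB and 275 of those with it. Within cluster 8 Fcer1g measured 55.7 CPM with and 153.5 CPM without a contig (-1.46, interval -1.77 to -1.15), and clusters 4 and 11 held too few of its UMIs (20 and 8) to compare. In the whole cycling class 80 of 1009 cells held an Fcer1g UMI, and 5 of them held 122 of its 395 UMIs. The intervals do not cover this spread between cells. Trdc measured 154.5 CPM in the cycling cells without contigs, 88.4 CPM with TRB alone and 16.6 CPM with TRB and TRA. In DP-like cells the ratios with over without TRB lay between -0.02 and 0.19 for the 8 genes past 50 CPM, and those of TRB and TRA over TRB alone between -0.08 and 0.09. In mature SP-like cells, where 33 cells lacked TRB, every interval held 0. None of the 9 was past 2-fold in DP-like cells (0.534% of 4119 genes lower and 0.146% higher) or in mature SP-like cells (3.36% of 2945 lower and 1.83% higher). A cell without a contig can still carry the chain, since contigs are found in part of the cells only.

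Across 20 combinations of class and pool with at least 50 cells, Cd3e and Cd3d were the most alike pair of the 9 genes. The Pearson correlation of their log2 levels was 0.965 between Cd3e and Cd3d, 0.922 between Cd3e and Cd3g and 0.853 between Cd3d and Cd3g. Cd247 followed Cd3e (0.922), and Lat followed Cd247 (0.882) and Lck (0.877). Fcer1g ran against all of them, from -0.318 with Lcp2 to -0.778 with Lat. The points included macrophage-like cells from ORFTOCs and, from both pools, an epithelial-like cluster of 138 cells that fell among the immune cells. Of that cluster 43.5% of cells had a TRB contig. The points share 1 lane and clusters of unlike depth, so these values are descriptions.

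By the same measure, over 6271 genes, the 3 genes most like each of the 9 were sought outside the set. Rbm38 was closest to Cd3e (0.944) and Cd3d (0.942), followed by Bdh1 and Trbc1 for Cd3e and by Gramd3 and Pdcd2 for Cd3d. Skap1, an adaptor of T cells, was closest to Cd3g (0.948), with Snhg8 and Sh2d2a next. Sh2d1a, which encodes the adaptor SAP, was closest to Cd247 (0.957), with Gmfg and Snai3, and Sla2, an adaptor that dampens TCR signals, to Lck (0.946), with Trbc2 and Mrpl58. Zap70 was nearest to Ptprcap (0.973), Acap1 and Tbc1d10c, Lat to Top2b (0.965), Sit1 and Camk4, and Lcp2 to Avl9 (0.947), Kmt2b and Cnot1. Fcer1g was nearest to Napsa (0.949), Batf3 and Plcg2. With rank correlations the choice changed: only 4 of these genes stayed among the 3 closest, Rbm38 for Cd3d, Gmfg for Cd247 and Sit1 and Top2b for Lat.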

How the data were processed

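Cells of both pools were captured in 1 lane with the 10x Genomics 5′ kit, with hashtag antibodies marking the pool. The deposited files hold raw UMI counts per barcode, made by the authors with Cell Ranger (6.1.2 per the labels; the matrix header names version 4) on mm10, and contig tables with read and UMI counts. The submitters' processing notes also name Seurat 4.2.0.

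Of 705161 barcodes, 10910 had at least 600 genes and 10245 of these had 0.4 to 10% mitochondrial UMIs. HTODemux in Seurat 5.3.0 (R 4.3.3; quantile 0.99) gave 8983 single cells, 590 doublets between pools and 672 negatives, and 591 further cells were removed as doublets within a pool from their 50 nearest neighbours. Counts were modelled with sctransform 0.4.2 with regression of cell cycle scores, and clustered on 18 principal components at resolution 0.4 for all cells and 1 for immune cells. With the main settings the selected-like class formed only at resolution 2, so its comparisons use the classes of that resolution. At resolution 1 it formed with 30 principal components (145 cells), log-normalised counts (131) and no cell cycle regression (200). It also formed there with at least 1000 genes per cell (152), doublets within pools kept (210) and hashtags assigned by a 3-fold ratio (200). Classes were named from marker lists, and the limits of the naming rule were set after the data were seen. The members and gene lists were chosen with earlier results of these data known.

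UMIs were summed per class and scaled to the class total (CPM). Zero counts were given a floor of 3 counts. Intervals are exact at 95% and cover counting error only. A gene was counted as higher or lower past 2-fold if its higher class had at least 50 CPM. Shares of cells with a UMI were compared after thinning to 1000 UMIs per cell. Correlations used log2(CPM + 10). Named beside the 9 genes were the TCR constant regions, the 3 listed genes at each end of the ratios between classes, and the 3 genes most like each member. The 5′ counts were not scaled by length, so levels were compared between classes, not genes. Cd247, Lck, Zap70, Lat and Lcp2 overlap other annotated genes, and reads shared with these cannot be told apart. Scripts were tested on simulated counts (Python 3.11.15, numpy 2.4.6, scipy 1.17.1, pandas 2.3.3, matplotlib 3.10.9). Promoter windows and positions came from RefSeq on GRCm38.p6.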

Additional observations from a re-analysis of the deposited data

How the results depend on the processing

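No paired analysis was possible because each pool is 1 sample, and for the same reason no replicate could be left out. Clustering settings, contig definitions, thinning and ambient subtraction kept the direction of every ratio of a member that was past 2-fold between thymocyte stages. So did median-of-ratios scaling and the mean of per-cell CPM. Per cell, an alternative chosen after seeing the data, 7 of 8 genes (all but Cd247) were 2-fold lower in DP-like than in cycling cells. Of all 4221 genes tested, 3832 were lower and 17 higher. The ratios that changed direction were Cd3e -1.501, Cd247 -0.55, Lck -1.45, Lat -1.51 and Lcp2 -1.13 on the log2 scale. In mature SP-like over DP-like cells 3 of 8 (Cd3d, Cd3g and Zap70) were then 2-fold higher and none lower, against 2242 and 165 of 3921 genes. There Lck at 0.087, Lat at 0.24, Lcp2 at 0.45 and Fcer1g at 0.22 changed direction within 2-fold. In mature SP-like over selected-like cells Cd247 then measured 0.023 and Lcp2 0.21. With median-of-ratios scaling 1 gene was 2-fold higher in DP-like than in cycling cells, against 415 of 4221 genes higher and 1132 lower. In mature SP-like over DP-like cells 2 were 2-fold lower, against 467 of 3921 genes lower and 533 higher.

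For mature SP-like over selected-like cells the count was 0 under median-of-ratios scaling and per cell, 1 with at least 1000 genes per cell, with doublets within pools kept or with hashtags assigned by a 3-fold ratio, and 4 after thinning. For cells with over without a TRB contig the count was 0 with log-normalised counts, without cells holding markers of other lineages and per cell. Between pools it was 1 in selected-like cells with log-normalised counts, with no filter or with a filter of 10 CPM, and 1 in mature SP-like cells with no filter. The pool ratio of Fcer1g in mature SP-like cells (1.48, on 14 and 3 UMIs) turned to -0.053 with doublets kept and to -0.85 with hashtags by ratio. With the members and the listed genes kept as clustering features no selected-like class formed. The cause of these shifts was not tested.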
